A study of Mus musculus with 6 samples.

Results

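The genes described here encode 9 myeloid surface receptors and their signalling partners, namely Pilrb1, Pilra, Tyrobp, Fcer1g, Fcgr3, Fcgr2b, Sirpa, Igsf6 and Ly86. They were taken as the probe sets whose annotation gives the gene's symbol and no other, which yielded 15 probe sets of 45037 on the array, for 9 of 18193 genes named in this way. Where a gene had several probe sets, the one with the highest mean signal over the 6 arrays served as the main one. The genes were chosen by receptor family with the signal differences between Ercc1-deficient and Ercc1-proficient cells on these same arrays already known, so their differences between the groups are a description.

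RNA came from LSK cells, bone marrow cells sorted for Sca-1 and c-Kit after removal of mature lineages, among which are the blood stem cells and early progenitors, of F1 mice from a cross of C57BL/6 and FVB/n. The 3 Ercc1-deficient samples carried a knockout and a truncated Ercc1 allele (-/d). Of the 3 Ercc1-proficient samples, those of litters 1 and 2 were +/+ and that of litter 3 was +/d, so it shared the truncated allele. Samples of equal number were litter mates, aged 22 weeks in litter 1 and 20 weeks in litters 2 and 3, and the sources used here do not say how many mice gave a sample. Ercc1 encodes a subunit of an endonuclease of nucleotide excision and crosslink repair, and the allele is carried in every cell of the animal, not in blood cells alone.

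Many receptors of myeloid cells work as pairs of related proteins with opposite effects. The activating receptors often, though not always, have no signalling motif of their own. Such receptors associate with small adaptors, here Tyrobp (DAP12) or Fcer1g (the Fc receptor gamma chain), whose ITAM motifs recruit the kinase Syk. Inhibitory receptors carry ITIM motifs that recruit phosphatases such as Ptpn6 and Inpp5d. These genes are best known from monocytes, macrophages and neutrophils, and their expression begins in myeloid-primed progenitors.

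Pilra and Pilrb1 are such a pair, the inhibitory and the activating paired immunoglobulin-like type 2 receptor, and they are neighbours on mouse chromosome 5. In the RefSeq annotation of GRCm38.p6, Pilrb1 lies at chr5:137852141-137858425 and Pilra at chr5:137821952-137836278. Sequences near an annotated start of each are shown because the arrays gave different patterns for genes that share a nearly identical stretch there. RefSeq promoter windows of 300 bases, from 250 before to 50 after an annotated transcript start, were held for 7 of the 9 genes. That start need not be the outer end of the gene: it lay at the end of the gene span in Pilra, but 376 bases inside it in Pilrb1, 51 in Igsf6 and 6512 in Fcgr3. An ungapped alignment of the Pilrb1 and Pilra windows covered 246 bases, of which 242 were identical (98.4%). The aligned stretches, at chr5:137858054-137858299 for Pilrb1 and chr5:137836229-137836474 for Pilra, both on the minus strand, are given 5′ to 3′ with the 4 differing bases in capitals.
Pilrb1: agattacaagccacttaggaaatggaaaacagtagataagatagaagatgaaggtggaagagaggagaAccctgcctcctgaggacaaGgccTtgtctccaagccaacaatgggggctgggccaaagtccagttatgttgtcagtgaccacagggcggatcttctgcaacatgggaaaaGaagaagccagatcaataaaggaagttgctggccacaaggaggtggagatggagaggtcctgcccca
Pilra: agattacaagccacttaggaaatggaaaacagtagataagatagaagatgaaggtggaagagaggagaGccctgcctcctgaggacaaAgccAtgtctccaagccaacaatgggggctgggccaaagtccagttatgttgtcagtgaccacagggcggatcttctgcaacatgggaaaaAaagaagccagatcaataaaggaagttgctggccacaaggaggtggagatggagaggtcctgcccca
Relative to the transcript start that each window uses, this shared stretch runs from 250 to 5 bases before it in Pilrb1 and from 196 before to 50 after it in Pilra. In Pilrb1 the stretch thus lies within the gene span given above.

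The promoter windows of Fcgr3 and Igsf6 are shown as those of other genes with higher signals in deficient cells of all 3 litters that hold GAGGAA, the core letters bound by the myeloid factor PU.1, or its reverse complement TTCCTC. The match is in capitals, and both windows lie on the minus strand, Fcgr3 at chr1:171059354-171059653 and Igsf6 at chr7:121074481-121074780.
Fcgr3: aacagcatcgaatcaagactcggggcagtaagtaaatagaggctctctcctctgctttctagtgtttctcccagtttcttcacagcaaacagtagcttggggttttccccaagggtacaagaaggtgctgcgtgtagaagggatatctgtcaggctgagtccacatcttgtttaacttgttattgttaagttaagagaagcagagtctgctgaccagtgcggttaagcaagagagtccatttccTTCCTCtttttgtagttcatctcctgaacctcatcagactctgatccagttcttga
Igsf6: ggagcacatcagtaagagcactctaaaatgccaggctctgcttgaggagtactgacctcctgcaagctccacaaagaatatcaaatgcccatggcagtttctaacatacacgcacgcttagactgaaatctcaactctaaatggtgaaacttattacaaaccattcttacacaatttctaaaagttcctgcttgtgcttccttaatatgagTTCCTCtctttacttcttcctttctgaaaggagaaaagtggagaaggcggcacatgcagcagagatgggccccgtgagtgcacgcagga
The match began 6 bases before the start that the window uses in Fcgr3 and 39 bases before it in Igsf6. Fcgr3 had 2 windows, of which the one listed first is shown, and its start lies inside the gene span. On either strand GAGGAA was present in 3 of the 7 windows, the other being that of Pilra, and in 28.3% of 27025 mouse promoter windows. By their main probe sets, Pilrb1, Fcer1g and Fcgr2b also had each deficient array above its litter mate, yet their windows held no GAGGAA. For Pilra, whose window held it, no deficient array exceeded its litter mate. The runt factor letters TGTGGT were in 3 of 7, those of Pilrb1, Pilra and Fcer1g, against 16.9% of all windows. The C/EBP letters TTNNGNAA, which can overlap themselves, were in 4 of 7, those of Pilrb1, Pilra, Fcgr3 and Igsf6, against 40.7%. The runt and C/EBP matches of Pilrb1 and Pilra lie at the same places of their shared stretch. Both counts thus include that stretch once for each gene, and they are not counts of unrelated windows. A match is a run of letters and was not tested as a binding site.

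Signals are MAS5 intensities with a floor of 30, and between 52.3% and 58.6% of the signals of an array lay at that floor. The labelled cell type was checked first: Cd34 had signals between 461 and 1370 in deficient cells and between 1080 and 1449 in proficient cells, and Kit between 92.2 and 125 in deficient and between 123 and 231 in proficient cells, while Ly6a, the Sca-1 gene, had no probe set of its own. Markers of other lineages were also present: S100a8, of neutrophils, reached 25656 in deficient and 8839 in proficient cells, and Vpreb1, of B cell precursors, 798 in deficient and 530.1 in proficient cells, although Itgam and Cd79a of the same lists were at the floor on all 6 arrays. Ercc1 itself was at 79.9, 34.5 and 44.9 in deficient cells of litters 1, 2 and 3, against proficient values that averaged 183 ± 58.3 (SD, n = 3). The deficient array of litter 1 stood apart in technical controls, with an Actb 3′ to 5′ ratio of 31.4, where the other 5 arrays had ratios between 9.83 and 21.6, and spike-in signals 2.28 times those of its proficient litter mate, where litters 2 and 3 had spike-in ratios of 1.09 and 1.13. The signal of 18S ribosomal RNA was 153, 1340 and 3556 in deficient cells of litters 1, 2 and 3, against 148, 727 and 2279 in proficient cells, so it was lowest in litter 1 and above the litter mate in each litter, by 1.04, 1.84 and 1.56 times. Fold values below compare arrays after the deposited scaling, and the part of these controls in them was not tested.

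Pilrb1, the activating receptor of the pair, was at the low end of the measurable range in proficient cells and above it in deficient cells. Its signals were 96.6, 121 and 176 in deficient cells of litters 1, 2 and 3, against 41.1, 30 and 42.1 in proficient cells. All deficient arrays lay above all proficient arrays, and the proficient array of litter 2 was at the floor. Within litters the deficient-over-proficient ratio was 2.35 in litter 1, at least 4.04 in litter 2 and 4.19 in litter 3. Deficient cells averaged 131 ± 40.7 and proficient cells 37.7 ± 6.70 (SD, n = 3 each). On the log2(signal + 30) scale the mean difference was 1.23 (standard error 0.23). Pilrb1 was the only gene of the 9 whose groups did not overlap, a pattern that 2.30% of the 22519 probe sets tested across the array had in this direction and 4.89% in the other.

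Pilra, the inhibitory receptor, gave almost no signal. All 3 deficient arrays were at the floor, and of the proficient arrays only that of litter 2 was above it, at 56.1. Proficient cells were thus at least 1.23-fold higher on the mean log2 signal, a bound that rests on 1 array. In litter 2, where Pilrb1 was at the floor in proficient cells, Pilra was at the floor in deficient cells, so the pair ran in opposite directions there. In the other litters only Pilrb1 was measured above the floor. Pilrb2, a further activating gene of this cluster, had no probe set of its own, and how far the Pilrb1 probe set reads related sequences was not tested.

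**Figure D1:**
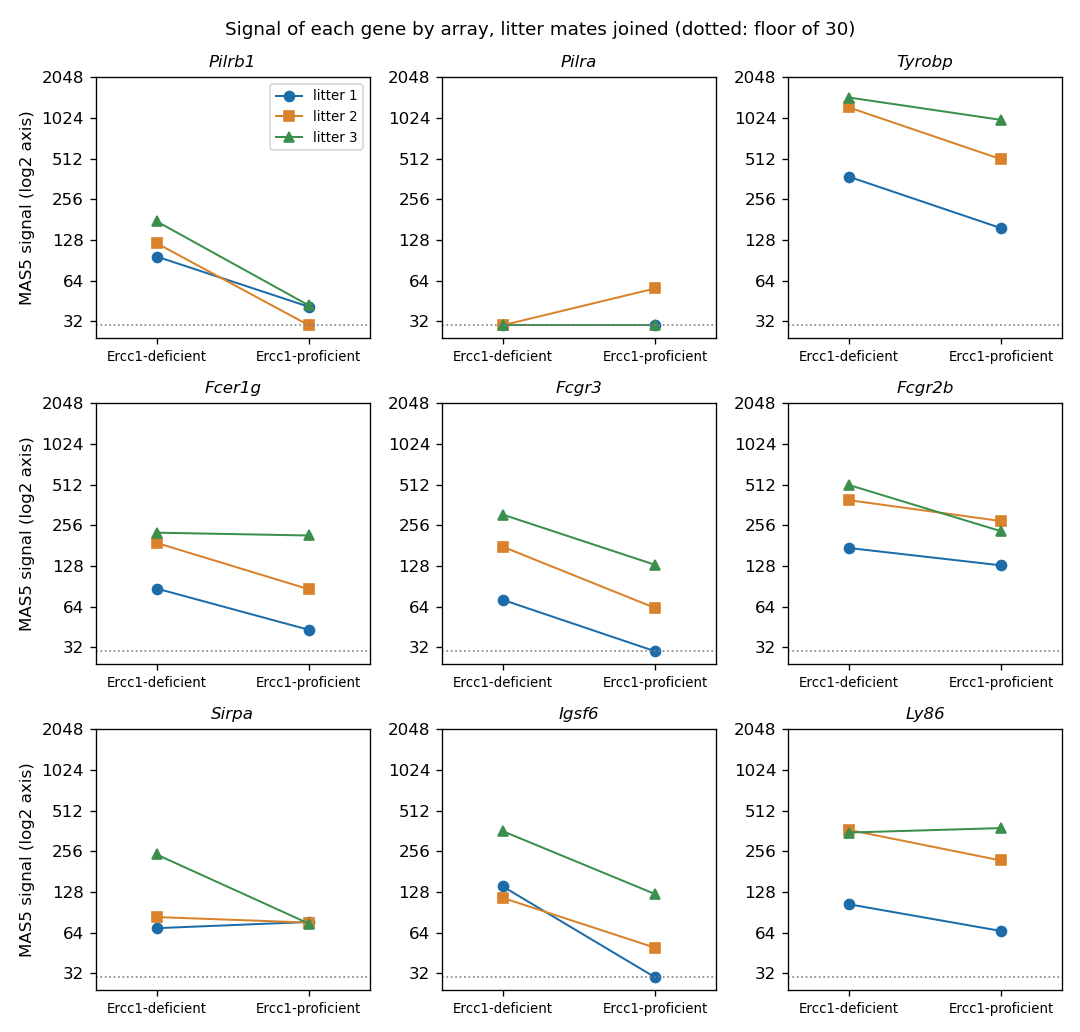
MAS5 signal (log2 axis) of the main probe set of each gene on every array, Ercc1-deficient left and Ercc1-proficient right, with litter mates joined and the floor of 30 dotted. The deficient values of Pilrb1, 96.6 to 176, lie above all its proficient values, while Sirpa differs in litter 3 alone and Pilra is above the floor on 1 array.

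Tyrobp, the adaptor used by Pilrb1 and by receptors of the TREM family, was higher in deficient cells of every litter. Its signals were 376, 1223 and 1449 in deficient cells of litters 1, 2 and 3, against 157, 506 and 989.8 in proficient cells. The groups overlapped because litter 1 was low in both genotypes, its deficient array lying below the proficient arrays of litters 2 and 3. The ratios within litters were 2.40, 2.42 and 1.46 in litters 1, 2 and 3. Its mean log2 difference was 0.96 (standard error 0.23).

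Fcer1g, the adaptor of the activating Fc receptors, had signals of 87.2, 189.9 and 226 in deficient cells, against 43.2, 86.2 and 215 in proficient cells. Its ratio was 2.02 in litter 1 and 2.20 in litter 2 but 1.05 in litter 3, where the proficient array reached the level of the deficient one. Its mean log2 difference was 0.55 (standard error 0.25). Both adaptors had their smallest difference in litter 3, and the difference of Tyrobp exceeded that of Fcer1g in each litter, by 0.44, 0.30 and 0.48 on the log2 scale. Over the 6 arrays their log2 signals had a Pearson correlation of 0.97, a description of 6 arrays that share litters.

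The low-affinity IgG receptors of mouse are the activating Fcgr3, which needs Fcer1g to reach the surface, and the inhibitory Fcgr2b. They lie near each other on chromosome 1, at chr1:171051169-171065915 and chr1:170960558-170976071, and their extracellular parts are closely related. Fcgr3 measured 72.0, 178 and 307 in deficient cells of litters 1, 2 and 3, against 30, 62.7 and 131 in proficient cells. Each deficient array was above its litter mate, by at least 2.40-fold in litter 1, where the proficient array was at the floor, and by 2.83-fold and 2.35-fold in litters 2 and 3. With the floor value of 30 entered for that array, its mean log2 difference was 1.0 (standard error 0.24).

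Fcgr2b was measured by 5 probe sets that gave different answers. Its main probe set, 1435477_s_at, had signals of 174, 393 and 509 in deficient cells against 129, 275 and 231 in proficient cells, with ratios of 1.34, 1.43 and 2.20. The next brightest, 1435476_a_at, had 193, 332 and 241 in deficient cells against 139, 342 and 246 in proficient cells. It was higher in deficient cells of litter 1 only, and its ratios in litters 2 and 3 were 0.970 and 0.981. The third, 1455332_x_at, had ratios of 1.88, 1.28 and 1.24. In Affymetrix naming, s_at marks a probe set shared by several transcripts, x_at probes that may cross-hybridise, and a_at a set shared by transcripts of a single gene. The fourth was above the floor in deficient cells of litter 3 at 66.1 and in proficient cells of litter 2 at 35.8, and the fifth never exceeded it. The mean log2 difference was thus 0.62 by the main probe set and 0.11 by the next.

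**Figure D2:**
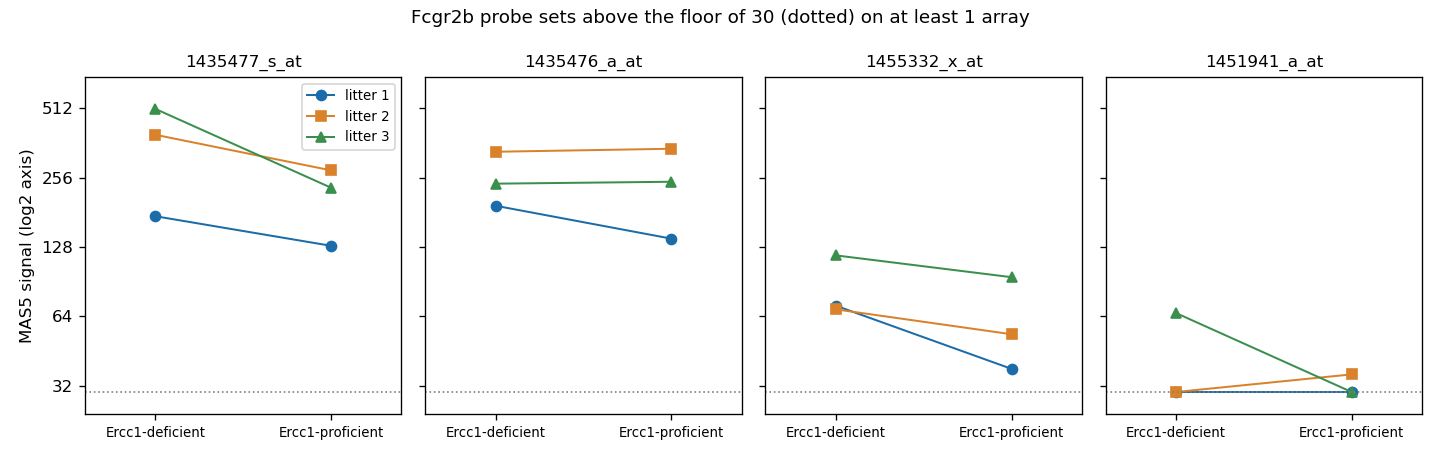
MAS5 signal (log2 axis) of the 4 Fcgr2b probe sets above the floor on at least 1 array, Ercc1-deficient left and Ercc1-proficient right, litter mates joined. The main set slopes downward to the proficient side in every litter, whereas litters 2 and 3 are level in 1435476_a_at, at 332 and 241 in deficient against 342 and 246 in proficient cells.

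Within litters the difference of Fcgr3 exceeded that of the main Fcgr2b probe set by 0.41, 0.69 and 0.03 on the log2 scale, so in litter 3 both receptors differed alike by this probe set. Because the main Fcgr2b probe set is of the shared kind, how much of its signal came from Fcgr3 or other transcripts was not tested.

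Sirpa, an inhibitory receptor that binds Cd47 on other cells, differed in a single litter. Its main probe set measured 69.2, 83.6 and 243 in deficient cells of litters 1, 2 and 3, against 76.9, 76.1 and 74.8 in proficient cells. The proficient arrays were nearly equal, and only the deficient array of litter 3 stood out, at 3.24 times its litter mate. Its mean log2 difference of 0.46 became -0.005 without litter 3. Of its other probe sets, 1 was at the floor throughout and 1 was above it on a single proficient array, at 31.7.

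Igsf6, an immunoglobulin superfamily receptor of monocytes, macrophages and dendritic cells, was higher in deficient cells of every litter. Its signals were 141, 116 and 361 in deficient cells, against 30, 49.6 and 124 in proficient cells. Each deficient array exceeded its litter mate, at least 4.69-fold in litter 1, where the proficient array was at the floor, and 2.33-fold and 2.91-fold in litters 2 and 3. The groups overlapped only through the proficient array of litter 3, which lay above the deficient array of litter 2. Its mean log2 difference was 1.24 (standard error 0.24).

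Ly86 (MD-1), the secreted partner that holds the Toll-like receptor homologue Cd180 at the surface, had signals of 104, 369 and 352 in deficient cells and of 65.9, 219 and 380.3 in proficient cells. It was higher in deficient cells of litters 1 and 2, by 1.58-fold and 1.68-fold, and slightly lower in those of litter 3, at a ratio of 0.927. Cd180 itself was weak, at 75.9, 30 and 50.8 in deficient and 50.8, 51.2 and 42.1 in proficient cells.

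**Figure D3:**
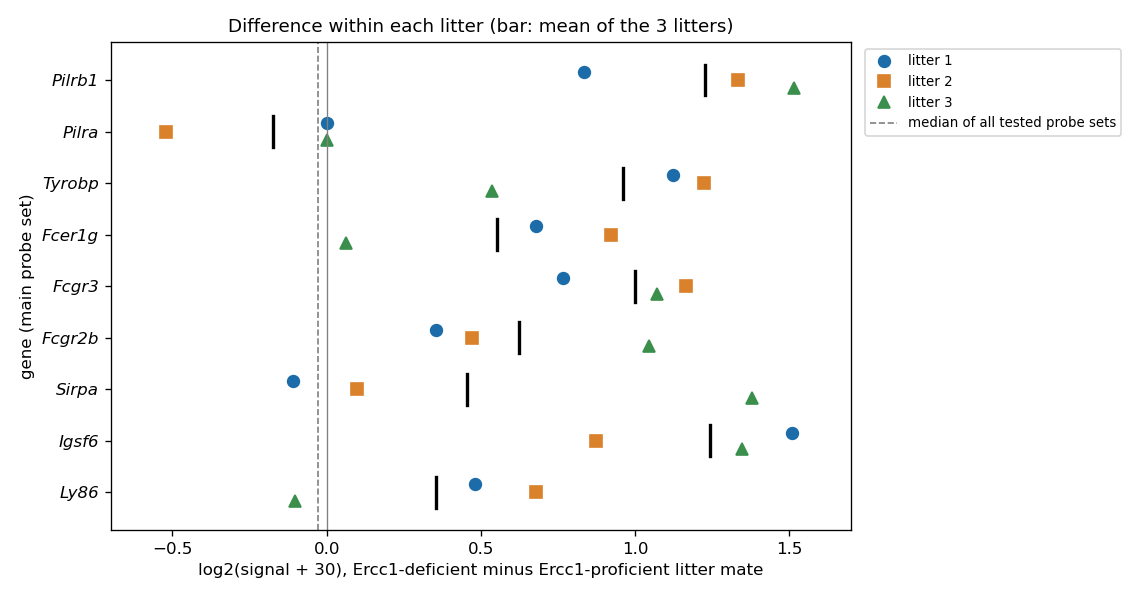
Difference in log2(signal + 30), Ercc1-deficient minus Ercc1-proficient litter mate, for the main probe set of each gene, with a marker for each litter, a bar for their mean and a dashed line for the median of all tested probe sets (-0.03). Pilrb1, Igsf6, Fcgr3 and Tyrobp lie above 0.5 in all 3 litters, whereas Sirpa and Ly86 have litters on both sides of 0.

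In every litter the deficient array was the higher one for 6 of the 9 genes and the lower one for 0 of 9, beside 11.3% and 17.0% of all tested probe sets. The median log2 difference was 0.62, beside -0.03 over all tested probe sets, and by litter the median of the 9 was 0.68, 0.87 and 1.04 in litters 1, 2 and 3. In the fit of limma with litter as a block, 4 of the 9 were called higher at an adjusted p under 0.05 and 0 lower, beside 0.315% and 0.520% of all tested probe sets (0.835% in either direction). The called genes were Pilrb1 (limma, adjusted p = 0.00887), Igsf6 (0.0113), Tyrobp (0.0440) and Fcgr3 (0.0460). The genes were chosen with this contrast known, so nothing is read from that count. It was 0 in the limma fit with no litter term, where 2 of 9 were higher at an unadjusted p under 0.05, beside 0.679% of all tested probe sets. It was also 0 when any litter was left out, where 4, 4 and 5 of 9 were higher at an unadjusted p under 0.05 without litters 1, 2 and 3, beside 2.21%, 2.21% and 3.17%.

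The genes also varied between litters within a genotype. The proficient array of litter 1 was the lowest of the 3 proficient arrays for 6 of the 9 genes, which was so for 34.4% of tested probe sets. For Tyrobp, Fcgr2b and Ly86 both arrays of litter 1 lay below all the others, which was so for 18.1%. Litter 1 differed from the others in age and in the array controls given above, and these cannot be told apart.

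The other genes of the pathway were examined through lists of activating receptors, inhibitory receptors, ligands and partners, and kinases, phosphatases and adaptors. Of 98 listed genes 81 had a probe set of their own and 62 were tested. With litter as a block 2 of the 62 were called higher in deficient cells and 0 lower, beside 0.315% and 0.520% of all tested probe sets. At an unadjusted p under 0.05 in limma 10 were higher and 2 lower, beside 4.12% and 7.33%. Both calls were lost in limma with no litter term and when any litter was left out.

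Among activating receptors, 10 of the 12 tested were higher and 2 lower, with a median log2 difference of 0.42, beside a background of 46.0% higher. The gene called higher was Trem3, which signals through Tyrobp in mouse. Its signals were 172, 815 and 1666 in deficient cells of litters 1, 2 and 3, against 30, 258 and 298 in proficient cells, and its log2 difference was 1.89 (standard error 0.23; limma, adjusted p = 9.87e-05). The C-type lectin Clec4e (Mincle), which signals through Fcer1g, did not pass, with 168, 185 and 177 in deficient cells against 64.6, 107 and 70.7 in proficient cells (limma, adjusted p = 0.076). For Clec4d the values were 103, 684 and 334 in deficient and 54.4, 541 and 192 in proficient cells. The beta-glucan receptor Clec7a had 99.0, 99.0 and 97.1 in deficient cells against 30, 64.6 and 91.0 in proficient cells. The mast cell Fc receptor subunit Ms4a2 had 194, 79.4 and 174 in deficient cells against 68.2, 76.9 and 165 in proficient cells, nearly equal in litters 2 and 3. Fcgr1, the high-affinity IgG receptor, exceeded the floor in litter 2 alone, at 37.7 in deficient and 51.1 in proficient cells.

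Among inhibitory receptors, 9 of the 12 tested were higher and 3 lower, with a median log2 difference of 0.35. Clec4a2, a lectin receptor with an ITIM, was called higher, with 359 and 569 in deficient cells of litters 2 and 3 against 73.4 and 67.0 in their proficient litter mates (limma, adjusted p = 0.0275). In litter 1 it was at the floor in both genotypes, so the call rests on litters 2 and 3. Clec4a2 did not pass with quantile normalization, no variance trend or the mean over probe sets (limma, adjusted p = 0.0587, 0.137 and 0.0650). Its other probe set did not exceed 36.0 on any array, with a log2 difference of 0.05. Lair1, a collagen receptor, had 225, 165 and 212 in deficient cells against 116, 97.1 and 129 in proficient cells, without overlap, but did not pass (limma, adjusted p = 0.224). Its other 2 probe sets had log2 differences of -0.18 and -0.03, against 0.68 for the one shown. Cd300a had 92.8, 262 and 302 in deficient cells and 129, 392 and 251 in proficient cells. Vsir had 121, 123 and 306 in deficient and 88.7, 146 and 157 in proficient cells, a log2 difference of 0.33. The other Vsir probe set was higher in the deficient array of each litter, at 0.76, without passing (limma, adjusted p = 0.161). Cd72, a receptor of B lineage cells, was lower in the deficient array of each litter without passing.

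The ligands and partners and the intracellular genes had medians on the other side of 0. Of 11 tested ligands and partners 3 were higher and 8 lower, with a median of -0.18 and 0 called (0 higher and 1 lower at an unadjusted p under 0.05 in limma). Cd47, the ligand of Sirpa, had 3045, 1114 and 3230 in deficient cells against 5244, 1677 and 2053 in proficient cells, lower in litters 1 and 2 and higher in litter 3. Its log2 difference was -0.24 by this probe set, but the other 4 probe sets had differences between 0.21 and 0.71. Hcst (DAP10), a small adaptor of other activating receptors, had 112, 285 and 187 in deficient cells against 51.2, 223 and 153 in proficient cells. Trim21, a cytosolic Fc receptor, had 127, 119 and 99.5 in deficient cells against 163, 181 and 189 in proficient cells, without overlap. It did not pass (limma, adjusted p = 0.392), and its other probe set overlapped, with a log2 difference of -0.07. The adaptor Skap2, described with Sirpa in macrophages, had a log2 difference of -0.04.

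Of 27 tested kinases, phosphatases and adaptors, 7 were higher and 20 lower, with a median of -0.15 and 0 called (0 higher and 0 lower at an unadjusted p under 0.05 in limma). Over all tested probe sets 54.0% were lower. Syk, the kinase that ITAM adaptors recruit, had 90.2, 107 and 153 in deficient cells against 195, 123 and 120 in proficient cells. Its effector Plcg2 had 436, 392 and 406 in deficient cells against 507, 607 and 529.9 in proficient cells, without overlap (limma, adjusted p = 0.530). The phosphatase Inpp5d, used by Fcgr2b, had 159, 163 and 157 in deficient and 224, 216 and 170.0 in proficient cells (limma, adjusted p = 0.675). Ptpn6, used by Pilra and Sirpa, had a log2 difference of -0.04, Ptpn11 one of -0.16 and Ptprc one of -0.26. Pik3cd was bright on all arrays, at 19114, 22659 and 11240 in deficient cells against 7880, 28386 and 8773 in proficient cells. That rests on 1 probe set, since the other 5 of Pik3cd did not exceed 133 on any array.

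**Figure D4:**
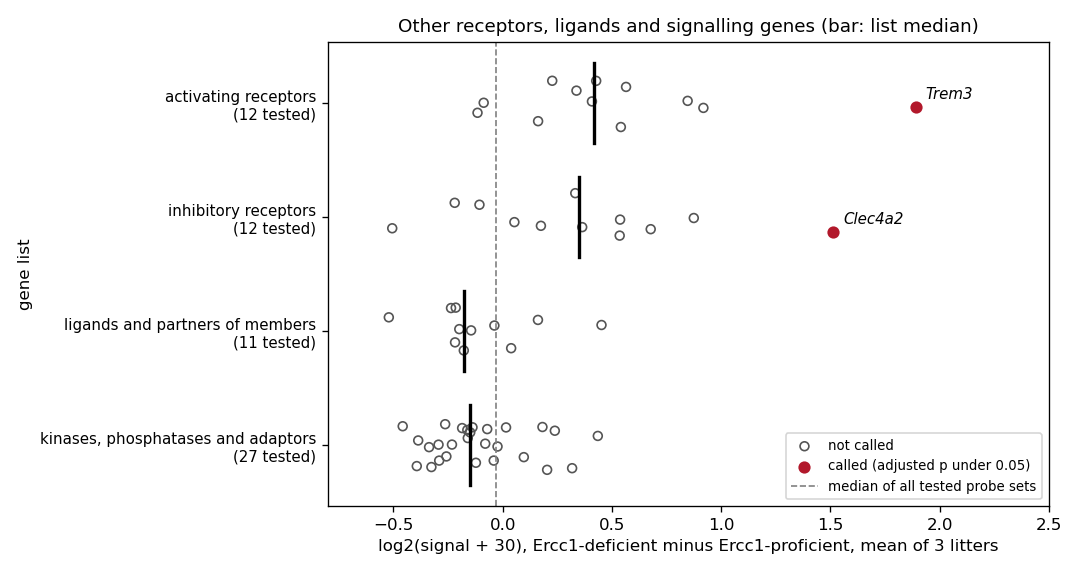
Difference in log2(signal + 30), Ercc1-deficient minus Ercc1-proficient, mean of 3 litters, for each tested gene of 4 lists, with a bar for the list median and a dashed line for the median of all tested probe sets. The activating and inhibitory receptor medians lie at 0.42 and 0.35 and those of the ligands and signalling genes at -0.18 and -0.15; Trem3 and Clec4a2 are filled as called.

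The genes whose signals ran most like the 9 were found by correlation with their mean standardised log2 signal over the 6 arrays. That profile was lowest in proficient cells of litter 1 (-1.11) and highest in deficient cells of litter 3 (1.13). Among 10876 other tested genes the closest were Trem3 (r = 0.991), the urokinase receptor Plaur (0.990), the pentose phosphate enzyme Pgd (0.990), thrombomodulin Thbd (0.989), the SNARE Vti1a (0.989) and the mitotic kinase Aurka (0.986). For each of these the deficient array exceeded its litter mate in litters 1, 2 and 3. The profile by which they were picked has the same order, so this follows from the choice. Of the 9 genes, Fcgr3 followed the shared profile most closely (r = 0.980), while the value of Pilra (r = -0.11) rests on the 1 array on which it exceeded the floor. Each of the 9 is itself part of that profile. These are correlations over 6 arrays that share litters and carry no test.

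Some markers of other cell types also differed between the groups, and how closely they followed the 9 genes was not tested. Of 12 mature neutrophil markers 10 were on the array, and their summed signal ranged from 5681 to 81363 in deficient cells and from 557 to 18331 in proficient cells. The 7 tested were all higher on average, and Camp, Ngp, S100a8 and S100a9 were called higher in the blocked fit of limma. In that fit 0.315% of all tested probe sets were called higher and 0.520% lower. These calls and the others of this paragraph were lost with no litter term and when any litter was left out. The granule proteins Ltf and Lcn2 did not pass (limma, adjusted p = 0.123 and 0.0745), with 2477 and 3055 in deficient cells of litter 3 against 123 and 89.3 in its proficient litter mate. Mmp9 had 50.1, 51.1 and 62.1 in deficient cells against 30, 35.9 and 30 in proficient cells, without overlap, and did not pass (limma, adjusted p = 0.287). Itgam, Cxcr2 and Mmp8 were at the floor on all 6 arrays. The 7 granulocyte-monocyte progenitor markers summed to between 14768 and 41365 in deficient cells and between 4206 and 20385 in proficient cells. Of the 7, 6 were higher on average, with Prtn3, Ctsg and Ms4a3 called higher. Csf3r was lower in the deficient array of each litter, at 172, 140 and 218 against 290, 198 and 248. The 10 monocyte and macrophage markers summed to between 959 and 2573 in deficient and between 624 and 1727 in proficient cells. Of these Ccr2 and F13a1 were called higher, Csf1r had 171, 425 and 354 in deficient cells against 141, 393 and 429 in proficient cells, and Vcan and C1qa were at the floor throughout. In RNA from a sorted population, more cells of a type and more RNA per cell cannot be told apart, and the part of these cell types in the differences of the 9 genes was not tested.

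Other marker lists were summed in the same way. Within every litter the neutrophil, progenitor, monocyte, mast cell and T and NK cell sums were higher in the deficient array. The LSK sum was lower there in every litter, and the dendritic and B cell sums went both ways. The 8 dendritic cell markers summed to between 1414 and 2588 in deficient cells and between 824 and 2212 in proficient cells, 0 were called (0 higher and 0 lower at an unadjusted p under 0.05 in limma), and Itgax, Siglech and Cd209a never exceeded the floor. The 7 mast cell and basophil markers summed to between 1329 and 1628 in deficient and between 519 and 1463 in proficient cells. Of these Hdc, which makes histamine, was called higher, and Tpsb2 and Mcpt4 were at the floor. The 5 B cell and 7 T and NK cell markers had 0 called (unadjusted p under 0.05 in limma for 0 and 1). The B cell sums ranged from 229 to 1566 in deficient and from 467 to 1027 in proficient cells. The T and NK cell sums ranged from 861 to 1517 in deficient and from 485 to 907 in proficient cells. Most of the latter was Nkg7, at 594, 1211 and 1191 in deficient cells against 252, 653 and 721 in proficient cells. Nkg7 did not pass (limma, adjusted p = 0.0565), and Ncr1 and Gzma were at the floor on all 6 arrays. Of the B cell markers, Vpreb1 had 30, 217 and 798 in deficient cells against 320.2, 156 and 530.1 in proficient cells, Igll1 had 36.9, 154 and 506 in deficient against 157, 73.5 and 193 in proficient cells, and Cd79b lay between 99.5 and 230.2 in deficient and between 112 and 222 in proficient cells. The 7 LSK markers summed to between 2385 and 6341 in deficient cells and between 3205 and 7072 in proficient cells. On average 5 were lower in deficient cells and 2 higher, Slamf1 and Mecom, with log2 differences of 0.36 and 0.15. Of the 7, Flt3, Procr and Hlf were called lower in deficient cells, beside 0.520% of all tested probe sets. These calls and that of Hdc were likewise lost with no litter term and when any litter was left out.

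**Figure D5:**
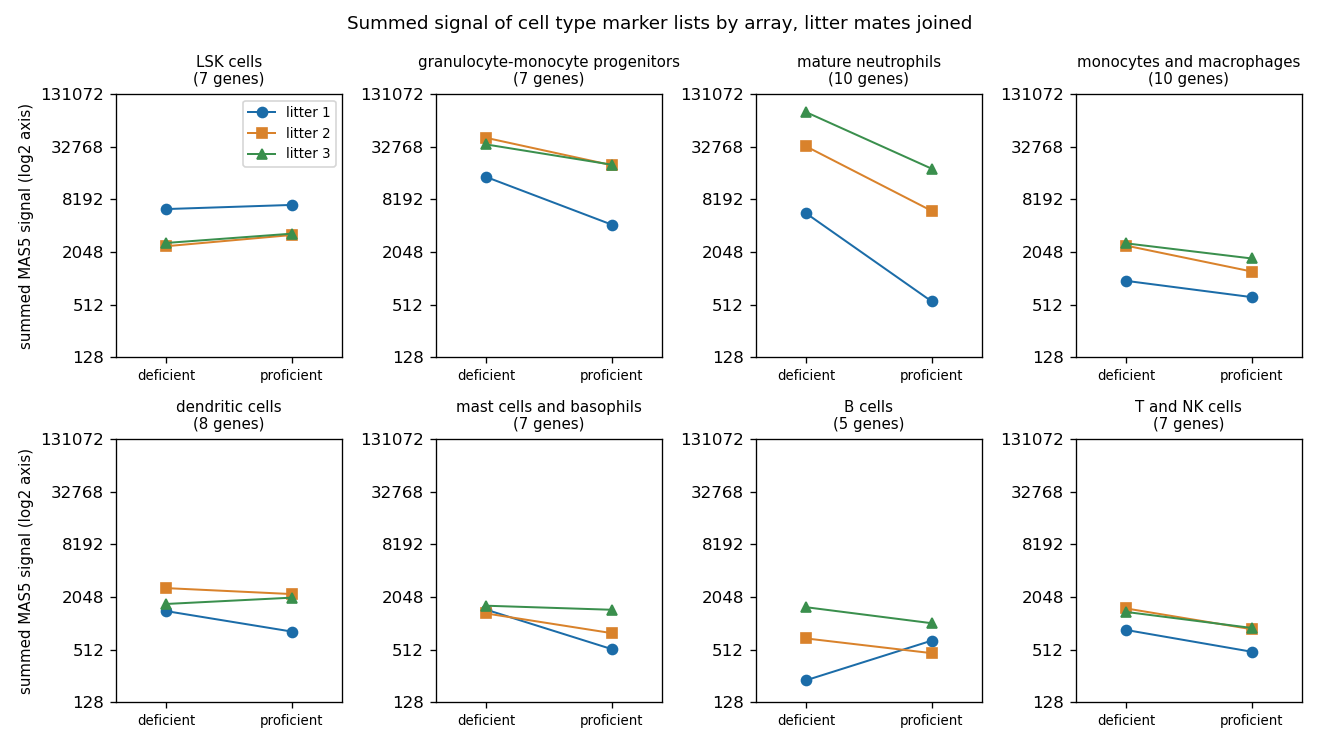
Summed MAS5 signal (log2 axis) of each cell type marker list on every array, Ercc1-deficient left and Ercc1-proficient right, litter mates joined. The neutrophil sum differs most, reaching 81363 in deficient against 18331 in proficient cells of litter 3, and the progenitor sum is higher in deficient cells of each litter.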

How the data were processed

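LSK cells of 3 Ercc1-deficient and 3 Ercc1-proficient samples were measured on Affymetrix whole-genome mouse arrays after 2 steps of linear RNA amplification, per the labels' protocols. MAS5 (version and scaling target not stated) made the deposited intensity values, which are on a linear scale, per the submitters' processing notes. No value lay below 30, and 17046 of the 45037 probe sets never exceeded it. Amplification favours 3′ ends, and the floor hides differences among weak genes.

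Signals were transformed as log2(signal + 30), which understates changes of weak genes. Without 64 control features, the brighter 22519 probe sets (mean signal not below the median) entered a limma 3.58.1 fit (R 4.3.3; eBayes, trended variance) with litter as a block and Benjamini-Hochberg adjustment at 0.05 over all of them. The litter labels pair the samples; after subtracting group means, litter mates correlated with r = 0.77, 0.67 and 0.46. No arrays held identical values. As separate animals per sample are not stated, p-values reflect only the spread among these 6 samples.

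Probe sets were named by the platform annotation of 2016, where 34945 had 1 symbol and 932 several. The RefSeq table and promoters are of GRCm38.p6; a missing promoter is named only. Where a group was at the floor, the fold is a bound against 30. Named genes were the 9, each called gene of the pathway lists with up to 4 more of the highest mean signal, and the 6 most alike; Fcgr1, Cd180, Syk, Inpp5d and Ptpn6 were added for their role after their values were seen. The genes and lists were chosen with earlier results of these data known. The alternatives were no litter term, quantile normalization, pseudocounts of 1 and 100, no filter and a stricter one (75th percentile), no variance trend, the mean over probe sets, and each litter left out.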

Additional observations from a re-analysis of the deposited data

How the results depend on the processing

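The number of the 9 genes called higher was 4 and moved to 0 in limma with no litter term. It moved to 2 with a pseudocount of 100 and to 0 with no filter on dim probe sets. When a litter was left out it ran from 0 to 0. Tyrobp did not pass with quantile normalization, a pseudocount of 100 or no variance trend (limma, adjusted p = 0.0960, 0.0630 and 0.0716). Fcgr3 did not pass with a pseudocount of 100 (limma, adjusted p = 0.0674), and Pilrb1 was not tested under the stricter filter. Over all probe sets, 188 were called with the litter block and 0 with no litter term (579 had an unadjusted p under 0.05), 0 with no filter (1825 unadjusted), 114 with no variance trend, and 0 to 0 without a litter (1288 to 1705 unadjusted). Of the pathway lists, 2 genes were called higher; this was 0 with no litter term, 1 with quantile normalization, 0 with no filter, 1 with no variance trend, 1 when all probe sets of a gene were averaged and 0 to 0 without a litter. The cause was not tested, but leaving out a litter leaves 4 arrays, and the added probe sets with no filter include 17046 at the floor throughout. The median log2 difference of the 9 genes stayed between 0.51 and 0.80, against 0.62. Single differences kept their sign in every alternative run for Pilrb1, Fcer1g, Tyrobp, Fcgr3, Fcgr2b, Igsf6 and Ly86; Sirpa turned to -0.005 without litter 3 and Pilra came to 0 without litter 2. The sizes moved: with pseudocounts of 1 and 100 the difference was 1.74 and 0.73 for Pilrb1 (main 1.23), 1.32 and 0.67 for Fcgr3 (1.0), and 1.64 and 0.82 for Igsf6 (1.24), and with 100 it was 0.36 for Fcer1g (0.55). Fcgr2b had 0.32 as the mean over probe sets and 0.41 without litter 3 (0.62), Ly86 0.19 without litter 2 and 0.58 without litter 3 (0.35), and Sirpa 0.74 without litter 1 (0.46). Signals near 30 set the limit for Pilra, Pilrb1 and the dimmer Fcgr2b and Sirpa probe sets, whose values below the floor have no order.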
